A study of Homo sapiens with 2 samples.

Results

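Purine enzymes were followed in Ca9-22 cells, an established line from a squamous carcinoma of the gingiva. The 10 genes are PPAT, GART, PAICS, ATIC, IMPDH2, HPRT1, APRT, ADA, PNP and XDH, which were chosen by name with their ratios on these same arrays already known. All 10 of the 12729 genes measured here were found, through the 26 of 54613 probe sets whose annotation names 1 of them alone. Cells stably transduced with an empty vector were compared with cells stably transduced with a RUNX2 vector, and both had been under blasticidin selection for 2 weeks. RUNX2 is a runt-domain transcription factor best known from bone. The promoter of the vector, and whether the transduced cells were a pool or 1 clone, are not given in the sources used here. Each group holds 1 array, so there is no replicate and no test, and every value below describes these 2 arrays.

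Cells build purines from small precursors onto a ribose phosphate, and the ring is finished as IMP, from which AMP and GMP are made. Salvage enzymes return free bases to nucleotides at much lower cost. In the opposite direction, adenosine deaminase turns adenosine into inosine, purine nucleoside phosphorylase releases hypoxanthine from it, and xanthine dehydrogenase oxidises hypoxanthine to xanthine and then to urate. Hypoxanthine is thus the branch point where HPRT1 recovers the base and XDH commits it to urate. XDH is abundant in liver, intestine and lactating mammary epithelium, and can be converted to an oxidase that passes electrons to oxygen.

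Among the 10 genes, the widest differences were those of the breakdown enzymes XDH, PNP and ADA. Genes of other lists given below also reached 2-fold, RRM2 and CTPS1 upwards and ADSS1 downwards. XDH was the 1 gene of the 10 that was 2-fold or more higher on the array labelled RUNX2, and 0 were lower by as much. The shares of all measured genes were 1.42% for higher and 1.47% for lower. At 1.5-fold, XDH and PNP were higher and ADA was lower, beside 5.77% and 6.88% of all genes. The other 7 genes, which make the ring, make GMP or salvage bases, were within 1.5-fold. Since the genes were chosen with these ratios known, the counts are read for size only.

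Promoter sequence is shown for the genes at both ends of the range and for the pair that share a start region. Sequences are from RefSeq, build GRCh38.p14, whose promoter table held 9 of the 10 genes, and they run 5′ to 3′. The first is the 250 bases upstream of the XDH start, chr2:31414743-31414992, minus strand, with CCAAT and its reverse complement in capitals.
XDH: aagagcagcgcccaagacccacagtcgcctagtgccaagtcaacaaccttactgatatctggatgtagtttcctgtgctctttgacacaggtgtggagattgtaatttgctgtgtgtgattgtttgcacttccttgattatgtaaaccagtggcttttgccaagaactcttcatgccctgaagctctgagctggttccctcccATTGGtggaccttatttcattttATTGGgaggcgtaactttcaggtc
The same stretch upstream of ADA is chr20:44651700-44651949, minus strand, with GGGCGG on either strand, the letters of a GC box, in capitals and overlapping matches joined.
ADA: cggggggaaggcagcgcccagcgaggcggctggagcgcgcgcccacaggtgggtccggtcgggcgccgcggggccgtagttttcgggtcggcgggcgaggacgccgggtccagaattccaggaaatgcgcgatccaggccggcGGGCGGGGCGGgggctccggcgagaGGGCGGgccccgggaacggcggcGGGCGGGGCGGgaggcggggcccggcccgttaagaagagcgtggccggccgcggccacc
PPAT and PAICS lie head to head, and 136 bases separate the PPAT start from the nearest PAICS start, chr4:56435616-56435751, given on the plus strand with GGGCGG on either strand in capitals.
PPAT-PAICS: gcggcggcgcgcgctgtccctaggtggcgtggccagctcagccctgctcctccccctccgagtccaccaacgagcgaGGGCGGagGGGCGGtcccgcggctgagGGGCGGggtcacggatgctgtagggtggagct

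The XDH window held 2 matches to CCAAT and 0 to GGGCGG, and the ADA window held 5 to GGGCGG and 0 to CCAAT. This contrast does not follow direction over the genes. GGGCGG also stood in at least 1 window of each other gene with promoter sequence, whichever way its ratio went. PNP, higher like XDH, held 2 matches to GGGCGG and 1 to CCAAT, and CCAAT also stood upstream of GART. Of 34943 windows of this length in the table, 32.0% held CCAAT and 42.5% held GGGCGG on at least 1 strand. The letters TGTGGT, a form of the core that RUNX proteins bind, stood in 11.0% of all windows. Among the 9 genes, of which GART and PAICS had 3 windows each, they stood in 1 window. That was the window of the PAICS start farthest upstream, and XDH, PNP and ADA had 0 matches. Other forms of the core were not searched. CACGTG, the E-box bound by MYC family factors, had 1 match each upstream of PPAT and ATIC, and stood in 6.32% of all windows. TTCNNNGAA, with N any base, stood upstream of ADA and in 6.56% of all windows. TATAAA stood in 1 GART window and in 10.8% of all windows. So few windows show no excess of any of these letters. A match is letters only and shows no binding.

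Direction rests on the labels of the arrays. Levels are in arbitrary units after the array labelled RUNX2 was scaled to the other, and a ratio is that array over the empty vector array on a log2 scale. The floor is the median of each array, 55.3 and 51.8. RUNX2 itself had probe sets on both sides: 216994_s_at read 204 and 854, 221282_x_at 102 and 353, but 232231_at 1746 and 433. Its remaining probe sets, 221283_at, 236858_s_at and 236859_at, were below the floor on both arrays. The median log2 ratio of all measured genes was -0.06. The log2 ratios of probe sets for the same gene differed with an SD of 0.29 over 6165 genes, which is a spread within the arrays and no replicate error. Squamous markers were well above the floor on both arrays (KRT5 at 8842 and 12580.4, CDH1 at 3545 and 3580.3), with a summed level of 25506 and 34248 over 5 of them and KRT14 2.69-fold higher. Of 8 fibroblast markers 6 were below the floor on both arrays, as were 4 of 6 endothelial ones, with summed levels of 2179 and 1768 and of 258 and 219.7. Most of the fibroblast sum is COL1A1, which was well above the floor at 1937 and 1553 and had log2 ratios from -0.39 to -0.20 over 5 probe sets.

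XDH, the enzyme that makes urate, showed the widest difference of the 10. Its probe set 241994_at read 208 with the empty vector and 837 on the array labelled RUNX2, which is 4.03-fold higher, a log2 ratio of 2.01. Its other probe set, 210301_at, read 81.9 and 184, 2.25-fold higher, a log2 ratio of 1.17. Both probe sets therefore exceeded the floor on both arrays and went the same way, though by unequal amounts, and their mean log2 ratio was 1.59. In RNA of a whole culture, a change in the share of cells and a change per cell cannot be told apart. By the brighter probe set XDH ranked 22 from the top of all 12729 genes, and 0.173% of genes had a ratio as high. Log2 ratios of the 4601 measured probe sets within 0.5 of its mean log2 level had an SD of 0.45.

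XDH is a marker of lactating and glandular epithelium, so genes of that kind were read beside it. Of 7 such markers, 4 lay below the floor on both arrays, among them the milk protein genes CSN2 (11.3 and 10.5) and LALBA (36.5 and 28.5) and BTN1A1 (23.8 and 20.0), the butyrophilin that partners XDH on the milk fat globule. The others were above the floor on both arrays. KRT8 read 655 and 734 (log2 ratio 0.16), KRT18 1927 and 2037 (0.08) and MUC1 244 and 179 (-0.45). The summed level of all 7 was 2935 and 3042. The list was thus mixed, with the milk genes below the floor and the keratins and MUC1 above it. Any part of glandular features in the XDH values was not tested.

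PNP, purine nucleoside phosphorylase, was next. Its single probe set, 201695_s_at, read 363 and 656, 1.81-fold higher, a log2 ratio of 0.85 that 2.16% of all genes reached. The SD of log2 ratios among the 4244 probe sets of similar level was 0.44. Having 1 probe set, PNP has no second reading on these arrays.

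ADA, adenosine deaminase, went the other way. Probe set 204639_at read 5338 with the empty vector and 2794 on the other array, and 216705_s_at read 3054 and 1599. Both were 1.91-fold lower, with a log2 ratio of -0.93 each, so the probe sets did not differ at this precision. Only 1.77% of all genes had a ratio as low, and the 636 probe sets of similar level had an SD of 0.39. ADA thus stood just inside 2-fold, as did PNP, in opposite directions, although their enzymes act one after the other.

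ADA and PNP are known above all from lymphocytes, whose development fails when either enzyme is lost. Of 7 leukocyte markers with a probe set, 5 were below the floor on both arrays, including PTPRC (18.6 and 10.6) and CD3E (35.0 and 26.1). CORO1A, at 55.2 and 77.2, and LCP1, at 775 and 1073, had log2 ratios of at least 0.48 and of 0.47, and the summed level of the 7 markers was 977 and 1265. Their part in the ADA and PNP values was not tested.

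**Figure D1:**
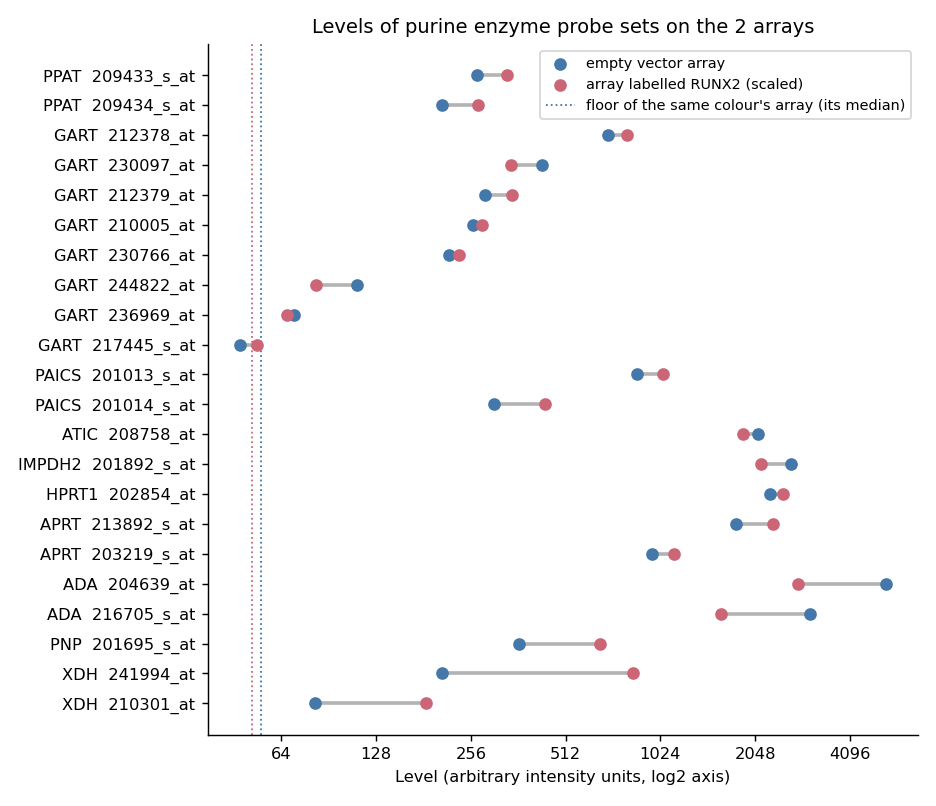
Levels of the 22 probe sets above the floor on at least 1 array, in arbitrary intensity units on a log2 axis, for the empty vector array (blue) and the array labelled RUNX2 after scaling (red), with each array's floor as a dotted line. The longest gap is that of XDH 241994_at, from 208 to 837, and both ADA probe sets run the other way.

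Salvage enzymes showed small differences. HPRT1, which returns hypoxanthine and guanine to nucleotides and often serves as a reference gene, read 2285 and 2518 in 202854_at, a log2 ratio of 0.14. Its other probe set, 1565446_at, lay far below the floor at 4.40 and 4.89 and gives no ratio. APRT, which does the same for adenine, read 1780 and 2333 in 213892_s_at and 966 and 1131 in 203219_s_at, with log2 ratios of 0.39 and 0.23. At the hypoxanthine branch point, the ratio of HPRT1 was thus near that of all genes while XDH stood far above it.

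Among enzymes of ring synthesis, PPAT and PAICS were slightly higher in every probe set above the floor, while ATIC was not and GART was mixed. PPAT, the amidotransferase that commits the pathway, read 267 and 332 in 209433_s_at and 207 and 270.5 in 209434_s_at, log2 ratios of 0.32 and 0.38. PAICS, a bifunctional enzyme of later steps, read 864 and 1044 in 201013_s_at, a log2 ratio of 0.27, and 303 and 441 in 201014_s_at, a log2 ratio of 0.54. All 4 probe sets of PPAT and PAICS above the floor were higher, at 1.21-fold to 1.46-fold. Ring enzymes outside this pair had ratios of like size, such as PRPS2 at 0.42 and ADSL at 0.32. PAICS has 3 listed starts, of which the nearest bounds the 136-base interval printed above. Any part of that interval in these values was not tested. One more probe set of each, PPAT 235833_at (35.6 and 34.3) and PAICS 214664_at (12.2 and 20.6), lay below the floor on both arrays.

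ATIC, which closes the ring to give IMP, was not higher. Its 1 probe set, 208758_at, read 2089 and 1868, a log2 ratio of -0.16. By the brightest probe set of each, PPAT, GART, PAICS and ATIC lay between -0.16 and 0.32, beside an SD of 0.42 over all genes.

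GART, a trifunctional enzyme of ring synthesis, had 9 probe sets, and they did not go 1 way. Of the 7 that exceeded both floors, 4 were higher and 3 lower. The brightest, 212378_at, read 698 and 804 (log2 ratio 0.20), and 212379_at read 285 and 346 (0.28). In contrast, 230097_at read 430 and 342 (-0.33) and 244822_at read 111 and 82.6 (-0.43). Close to 0 were 210005_at and 230766_at, both at 0.10, and 236969_at at -0.07. The mean over its measured probe sets was -0.02, so the sign for GART turns with the choice of probe set. Of the remaining 2, 217445_s_at was near the floor at 47.3 and 53.4 and 216990_at was below it at 6.81 and 5.61.

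IMPDH2, the rate-limiting enzyme on the way from IMP to GMP, read 2662 and 2142 in its 1 probe set, 201892_s_at, a log2 ratio of -0.31. It was the lowest of the 10 after ADA, and 21.4% of all genes had a ratio as low.

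**Figure D2:**
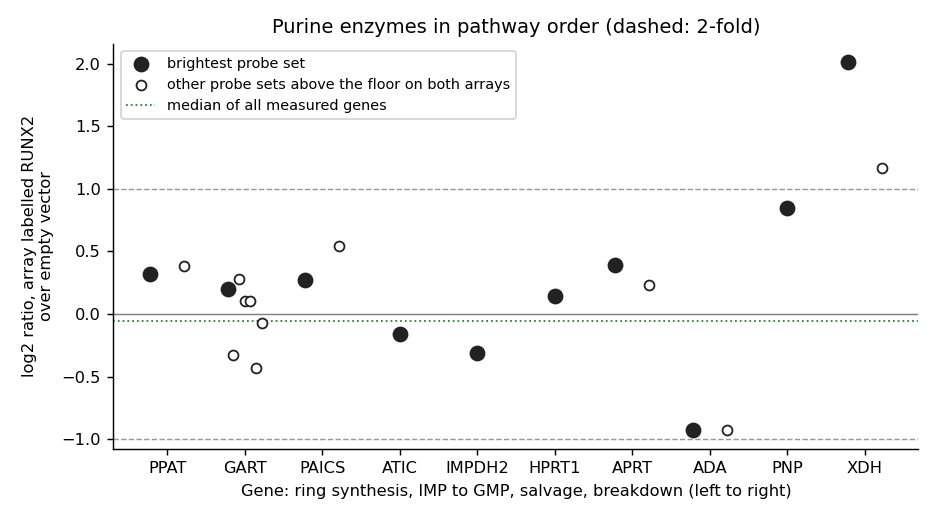
Log2 ratios, array labelled RUNX2 over empty vector, of the 21 probe sets that exceeded both floors, by gene in pathway order, with the brightest probe set of each gene filled. Both XDH points lie above 1, both ADA points coincide at -0.93, and the GART points lie on both sides of 0.

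Over the 10 genes the median log2 ratio was 0.24, and 7 of 10 were above 0, against 42.7% of all measured genes. The share of all genes is not like for like, since it includes many genes beside the floors, which are unequal at 55.3 and 51.8. The 7 also count GART by its brightest probe set, though its mean over probe sets was -0.02. Of the 21 probe sets that exceeded both floors, 14 were above 0 and 7 below. These are not separate readings, since 7 of the 21 belong to GART, with 4 higher and 3 lower. The share over all probe sets was not taken, so no excess is read from this count. HPRT1, APRT, ADA, ATIC and IMPDH2 were read far above the floor on both arrays in their brightest probe sets, where it plays no part in the ratio. XDH was nearest the floor of the genes that differed, by its dimmer probe set on the empty vector array.

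**Figure D3:**
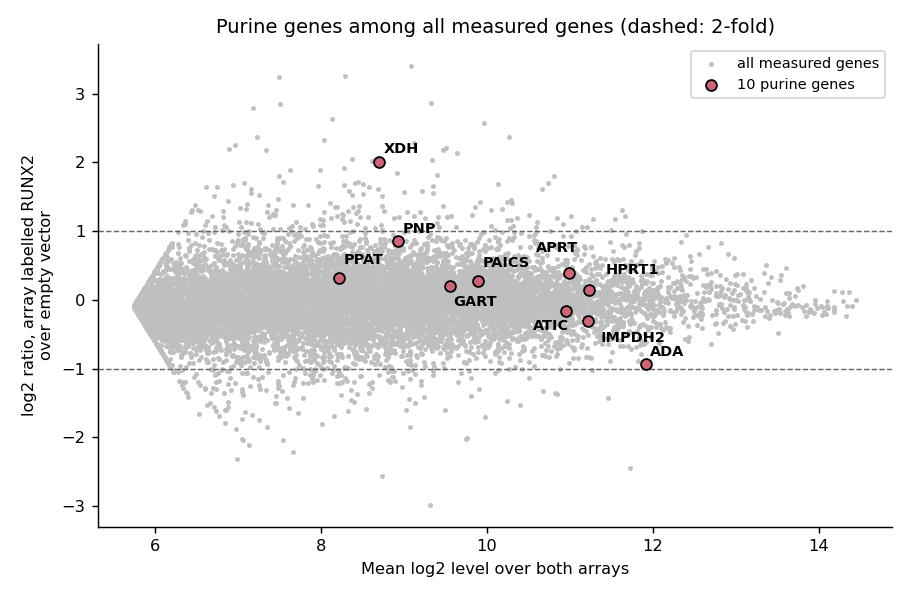
Log2 ratio against mean log2 level for all 12729 measured genes (grey), with the 10 purine genes in red and 2-fold as dashed lines. XDH at 2.01 lies above most genes of its level, ADA at -0.93 lies at the lower edge for its level, and 7 of the 10 lie within the main cloud.

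The rest of the pathway was read from wider lists, which were likewise drawn up with earlier results known. Ring synthesis as a whole had 8 genes, all measured, with 7 above 0, 0 past 2-fold either way and a median log2 ratio of 0.28. PRPS1 and PRPS2, which make the ribose donor PRPP, had 0.23 and 0.42, and PFAS and ADSL, enzymes of middle steps, had 0.28 and 0.32. By the brightest probe set ATIC was the 1 enzyme of the list below 0, and GART is near 0 as a mean over probe sets (-0.02). No gene of the list passed 1.5-fold.

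Over 6 measured of 8 genes, the branch from IMP to AMP and GMP had a median log2 ratio of -0.21, with 0 higher by 2-fold and 1 lower. ADSS1, the muscle-type adenylosuccinate synthase, read 329 and 164, on the 2-fold threshold itself, but its other probe set had a log2 ratio of -0.17. GMPR, which turns GMP back to IMP, read 73.4 and 50.2, below the floor on the second array, and was at least 1.42-fold lower. GMPS, which makes GMP, had -0.12 in the brightest of its probe sets and 0.54 and 0.60 in the others. The negative median thus did not hold for every probe set of the branch.

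Among 6 measured salvage genes of 7, the median was 0.14 and 0 passed 2-fold. MTAP, which recovers adenine from the polyamine by-product methylthioadenosine, had 0.39 in its brightest probe set and between 0.76 and 1.12 in 3 others. ADK, adenosine kinase, which competes with ADA for adenosine, had 0.15, with levels of 2566 and 2838. So the kinase was within 1.5-fold where the deaminase was 1.91-fold lower.

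Breakdown genes had the widest range, from ADA at -0.93 to XDH at 2.01, with a median of 0.06 over 14 measured of 19. XDH was the 1 gene past 2-fold in the main setting. Over 12 alternatives of processing and threshold this count ran from 1 to 3, and it was above 1 in 4 of them. SAMHD1, a dNTP triphosphohydrolase that interferon can induce, read 798 and 1507, a log2 ratio of 0.92, and its 4 other probe sets had 0.88 to 1.47. NT5M, a mitochondrial nucleotidase, had -0.49. NT5E, the ecto-nucleotidase CD73 that makes extracellular adenosine, had 0.28 in its brightest probe set and 0.74 and 1.11 in others. GDA, guanine deaminase, which feeds xanthine to XDH, was below the floor on both arrays at 31.9 and 33.7.

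Enzymes that build the molybdenum cofactor of XDH did not share its size of difference. In the list of cofactor genes, related molybdoenzymes and urate transporters, 0 of 9 measured genes passed 1.5-fold, and the median was 0.12. MOCOS, the sulfurase that activates XDH, read 321 and 371 (0.21), MOCS2 had 0.33, MOCS3 0.29 and MOCS1 -0.13. AOX1, the closest relative of XDH, was at 56.2 and 55.1, beside the floor. SLC2A9, a urate transporter, had 0.14, and the urate exporter ABCG2 was below the floor at 19.5 and 29.3.

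Nucleotide kinases and ribonucleotide reductase had 1 of 12 measured genes past 2-fold upwards, the reductase subunit RRM2 (2.35-fold, and a log2 ratio of 0.76 in its other probe set), and 0 lower. The median was 0.15, with NME1 and AK4 at 0.57 and AK9 at -0.60 (-0.24 in its other probe set). RRM1, the partner subunit, had 0.13. Folate enzymes that supply one-carbon units had a median of 0.24 over 7 measured genes and 0 past 2-fold. MTHFD2L had 0.85 in its brightest probe set and 0.09 to 0.28 in others. TYMS, which makes dTMP, had 0.71, and 0.86 in its other probe set. ALDH1L1 had -0.43, and 0.02 in its other probe set. By the brightest probe set, 4 of the 7 measured folate genes were above 0 and 3 below. MTHFD2, 1 of the 3, had -0.26 there and 0.39 in its other probe set. For MTHFD2 and ALDH1L1 the sign thus turned with the probe set.

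Genes of extracellular ATP and adenosine had a median of -0.24 over 9 measured, and 0 passed 2-fold. The adenosine receptor ADORA2B read 478 and 768 (0.68) and the ecto-nucleotidase ENTPD3 had 0.65, while ENTPD5 had -0.63 and ENTPD2 -0.61. Nucleoside transporters had a median of -0.13 over 5 measured genes. By the brightest probe set SLC29A2 was lowest at -0.63, but its other probe set had -0.18. SLC28A3, a concentrative transporter below the floor with the empty vector (17.3, against 66.5), was at least 1.20-fold higher. That is a bound set by the floor, and with no floor or a floor at the 25th percentile SLC28A3 passed 2-fold.

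For comparison, pyrimidine genes had a median of 0.09 over 18 measured, with 1 past 2-fold upwards and 0 downwards. CTPS1, which makes CTP, read 174 and 389, 2.24-fold higher in its 1 measured probe set. UMPS had 0.68 in its brightest probe set and -0.26 to 0.56 in others, DCTPP1 had 0.65 and CDA, cytidine deaminase, 0.61. Enzymes that make or remove reactive oxygen, listed because the oxidase form of XDH yields superoxide and hydrogen peroxide, had a median of 0.22 over 10 measured genes with 0 past 2-fold. SOD2 had 0.64, DUOX1 0.48, PRDX2 0.45 and GPX1 0.29, and CAT 0.03. In its other probe sets PRDX2 ran from -0.20 to 0.46. Of the 10 genes, 8 were above 0 and 2 below, GPX4 at -0.10 and PRDX6 at -0.08. Without the 10 genes, 64 measured purine genes had a median of 0.06, with RRM2 past 2-fold upwards and ADSS1 at 2-fold downwards.

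**Figure D4:**
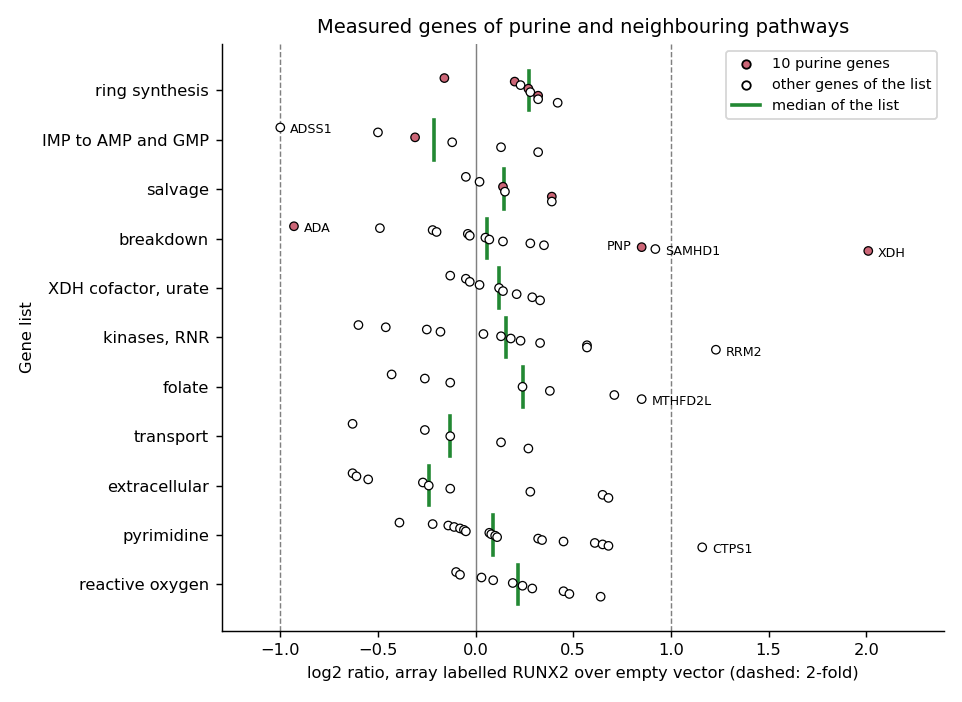
Log2 ratios of the measured genes in 11 lists of purine and neighbouring pathways, by the brightest probe set, with the 10 purine genes in red, a green bar at each list's median and 2-fold as dashed lines; RNR is ribonucleotide reductase. The breakdown list spans the widest range, from ADA at -0.93 to XDH at 2.01, and the ring synthesis list lies between -0.16 and 0.42.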

How the data were processed

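Biotin-labelled cRNA from 6 ug of total RNA was hybridised to Affymetrix arrays, per the labels' protocols. The authors deposited 1 linear intensity per probe set and array, and the submitters' processing notes name MAS5 without version or scaling target. Log2 ratios spread less in the lowest of 12 level classes (SD 0.21) than in the widest (0.47). MAS5 signals usually spread most when low, so how the values were summarised, and what ratios near the floor mean, is uncertain. An array has no read depth, and precision is limited by having 1 array a group.

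After removal of 62 control probe sets, a factor of 0.966 brought the array labelled RUNX2 to the 2% trimmed mean of the other, and values under an array's median were raised to it, which makes the ratio a bound. A probe set above the floor on at least 1 array was measured, and the brightest of these by mean log2 level represented each gene. The platform annotation gave 41091 probe sets 1 symbol, 1801 several and 11721 none. Of the first, 41037 were updated by Entrez ID through RefSeq (GRCh38.p14). With 1 array per group the fixed size was 2-fold and no test was made. The named genes are the 10 members, list genes past 2-fold and up to 4 of the widest ratios per list, with others named for their role after values were seen. Members and lists were chosen with earlier results of these data known. Alternatives covered scaling, floor, choice of probe sets and threshold. Scripts ran in Python 3.11.15 with pandas 2.3.3 and statsmodels 0.14.6, and were tested on simulated arrays.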

Additional observations from a re-analysis of the deposited data

How the results depend on the processing

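Under 10 alternatives of scaling, floor and probe sets, fewer where no probe set remained, the log2 ratio ranged from 1.59 to 2.10 for XDH, from 0.76 to 0.95 for PNP and from -0.95 to -0.84 for ADA. XDH moved by more than the probe set SD of 0.29 when ratios were averaged over probe sets (1.59), since its probe sets differ. GART was the 1 gene whose sign turned, to -0.02 as a mean over probe sets. The count of the 10 genes at least 2-fold higher was 1 and lower 0 under each of these alternatives. At 1.5-fold the counts were 2 and 1. At 4-fold, XDH alone remained higher. Over all genes, 181 were at least 2-fold higher and 187 lower, 112 and 79 with the floor at the 75th percentile, 114 and 91 when an offset replaced the floor, 735 and 876 at 1.5-fold, and 22 and 11 at 4-fold. Over the 102 measured genes of all lists together, 3 were at least 2-fold higher, 13 at 1.5-fold and 1 at 4-fold. The shares of all measured genes were 1.42% higher at 2-fold and 5.77% at 1.5-fold. These lists too were drawn up with earlier results known, so the counts are a description. The lower count of 1, ADSS1, was 0 on the deposited scale, with equal medians, after loess, with the floor at the 75th percentile, with an offset, as a mean over probe sets and at 4-fold, and 6 genes were lower at 1.5-fold. Of 264 counts for single lists, 26 moved by over 1.5 times or to or from 0, and 14 of these at the 2-fold threshold. No paired analysis was possible because each group holds 1 array. Probe sets that can match several transcripts are the sole measured ones for APRT, PNP, PPAT, PAICS and IMPDH2, so no value remains for these without them.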
